A study of Mus musculus with 18 samples.

Results

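Meiotic maturation was described in oocytes of young mice, by comparing metaphase II (MII) oocytes with germinal vesicle (GV) oocytes across all genes. The oocytes were chosen by sample title alone, which gave 5 different libraries of the 18 in the series, 3 MII and 2 GV. A further GV file held the same values as GV oocyte 1 in all 47069 genes, and the pair was counted once. The oocytes came from C57BL/6JAusb mice of 4 weeks with no genetic change named in the labels, which drank water without nicotinamide mononucleotide (NMN), the compound given to other mice of the series. Each library was made from 1 oocyte, and the labels name neither the animals nor a hormone treatment or a maturation in culture. The oocytes of a stage were therefore taken as 1 sample of that stage, no test between stages was made, and each value below describes these 5 oocytes. Per the labels the oocyte was lysed gently, the nucleus was spun down and the supernatant was used, so RNA of an intact nucleus was left behind, and an MII oocyte has no nuclear envelope. A change in RNA per oocyte and a change in the share of a transcript cannot be told apart in these data.

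A GV oocyte is arrested in prophase of the first meiotic division, with a large nucleus, the germinal vesicle. Its cAMP is kept high, which holds the kinase CDK1 with its cyclins inactive. When the arrest is released, the nuclear envelope breaks down, the first polar body is extruded and the egg stops again at metaphase II, held by the MOS and MAP kinase pathway. Transcription is silent over this period. Known control acts on stored maternal mRNAs: some lose their poly(A) tail and are degraded, while others, called dormant, gain a longer tail and are translated through the cytoplasmic polyadenylation element (CPE) near their 3' end, a U-rich site bound by CPEB1. The poly(A) signal, AAUAAA or AUUAAA, usually lies downstream of it or overlaps it.

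Sites of the motifs used below are shown from named genes at the ends of the range, each as 30 bases of the annotated 3' UTR in GENCODE vM21 (GRCm38), written 5' to 3' on the strand of the mRNA with T for U. In the first 5 the capitals mark a match to the CPE motif, which is not a shown site of CPEB1. In Fam69b the match ends 6 bases before the annotated end and lies downstream of an AATAAA, unlike the usual order. These belong to genes higher in MII oocytes, and to Gdf9 and Btg4, which encode an oocyte growth factor and an adaptor of mRNA deadenylation. The genes shown here and below were picked for holding the marked motif, so the sites do not show how often it occurs. Ninj1 and Vgll4, with larger positive ratios than Fam69b, had no CPE match, and Ndufaf3 and Ndufa2, among the most negative ratios, had a match.
Fam69b, chr2:26636468-26636497, plus strand: aatatgtaaataaatggcTTTTATgtgaca
Csad, chr15:102177043-102177072, minus strand: tgtgcttccccaTTTTATtgtgtaacaaca
Rbm38, chr2:173034668-173034697, plus strand: ttataataatatTTTTATtagaatgttctg
Gdf9, chr11:53437854-53437883, plus strand: agagtgctgtggTTTTATgtgacggaagaa
Btg4, chr9:51119797-51119826, plus strand: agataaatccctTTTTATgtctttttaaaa
In the other 3 the capitals mark a match to the poly(A) signal, which is not shown to be the used one. These belong to genes lower in MII oocytes, which had no CPE motif in the last 100 bases of the annotated UTR. In Tmem126b the marked match ends 4 bases before the annotated end, and another AATAAA, not marked, lies upstream of it.
Tmem126b, chr7:90467438-90467467, minus strand: tcacaatcaataaaaagttcAATAAAaagg
Atp5j2, chr5:145183710-145183739, minus strand: gaactagtgtccAATAAAaggtgactggtt
Rpl37, chr15:5119104-5119133, plus strand: tcagagctacacATTAAAactcttaattca

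Library totals ran from 3941002 to 5586857 counts, so that 3 counts in a library stood for 0.537 to 0.761 counts in 1e6 (CPM). Genes with a count numbered 10079 and 8825 in the GV oocytes and 9106, 12636 and 13477 in MII oocytes 1, 2 and 2-1. MII oocyte 1 stood apart. Genes of mitochondrial DNA, not only those of mRNAs, took 24.4% of its counts (95% Wilson interval 24.36 to 24.43%, counting error only). The share was 5.08 and 6.55% in the other MII and 3.75 and 8.55% in the GV oocytes. Across genes, Spearman's rho was 0.74 for the GV pair, 0.70, 0.64 and 0.85 for the MII pairs and 0.54 to 0.60 between stages. All 13 oocyte markers had counts, with sums of 11067 to 13129 scaled CPM in GV and 13852 to 58891 in MII oocytes. Of 20 cumulus and granulosa markers 15 had a count, with sums of 27.6 to 61.1 in GV and 43.0 to 338 in MII oocytes, and Amh, Amhr2, Foxl2, Has2 and Lhcgr were at 0 in all 5. Immune, endothelial, stromal and erythroid markers summed to at most 62.3 scaled CPM in any oocyte, and Ptprc, Cldn5, Col1a1 and Hbb-bs were at 0.

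The 12161 genes described split into a majority called in neither direction and sets of similar size called lower and higher. Genes were called lower or higher in MII oocytes where the means differed by at least 4-fold after adding 1 CPM, no MII oocyte overlapped a GV oocyte, and the higher mean was at least 10 CPM. By this rule 1204 genes (9.9%) were lower and 1032 (8.49%) were higher, 18.4% in all. The counts called in each list below are read beside these shares. The lower genes took 36.7% of the scaled CPM of GV and 4.08% of that of MII oocytes, and the higher genes 2.48% and 18.2%. Without MII oocyte 1 the counts were 1462 lower and 1460 higher. Among libraries whose titles name no batch, taken here as batch 1, the 2 MII oocytes against GV oocyte 1, they were 1621 lower and 1354 higher, and within batch 2, with 1 oocyte a stage, 1786 lower and 2017 higher. Overlap is less likely with fewer oocytes, so these counts tend to rise and are not a measure of stability. Of the identical GV files, one is titled as batch 2 and the other names no batch. The median log2 ratio of MII over GV was 0.35 over all genes and is the value against which list medians below are read, and it moved between 0.11 and 0.67 with the scaling. In MII oocytes 1, 2 and 2-1 alone, each against both GV oocytes, it was lower, at -0.19, 0.04 and 0.21. List medians of a single oocyte below are read against these. With DESeq2 size factors 33.9% of the called genes were higher, with the deposited TPM 56.6%, and as described here 46.2%. Of the 12161 genes, 198 had no count in either GV oocyte and at least 10 CPM in MII oocytes, and 73 had the reverse. These 2 numbers are not directly comparable, because 0 is reached more easily over 2 GV than over 3 MII oocytes. Over the GV oocytes 3 counts stood for 0.389 scaled CPM, and over the MII oocytes for 0.187.

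**Figure D1:**
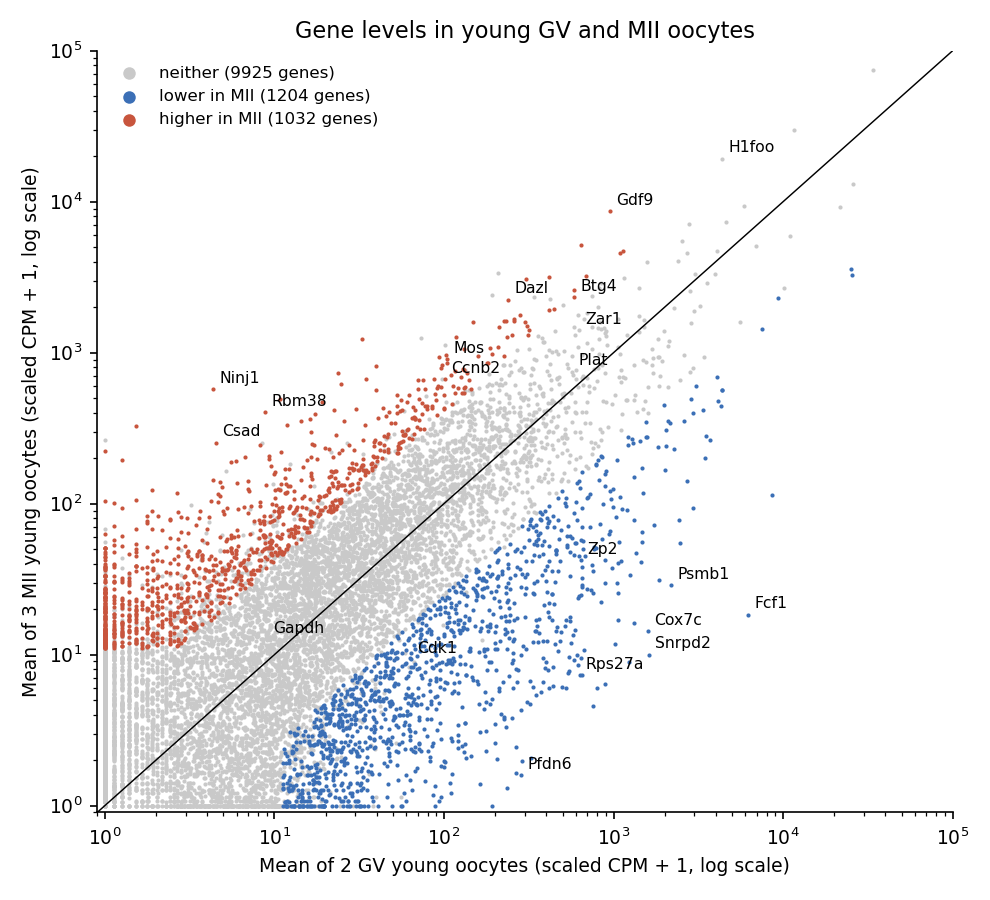
Mean level of each of 12161 genes in 2 GV (x axis) and 3 MII young oocytes (y axis), in scaled CPM plus 1 on log axes, with the diagonal of equal level. Blue points are the 1204 genes lower and red points the 1032 genes higher in MII oocytes, and grey points are the others. The blue genes include Ubb and Sub1 with GV means of 25476 and 25156 scaled CPM, and most red genes lie at the left of the plot.

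The largest negative ratios included mRNAs of ribosome assembly, splicing, transcription and mitochondria. Fcf1 encodes a nuclease-like protein of the complex that processes small-subunit ribosomal RNA, and lies at chromosome 12, 84970897 to 84983303 on GRCm38. It was at 7705 and 4758 in GV oocytes 1 and 2-2 and at 33.9, 13.1 and 5.18 in MII oocytes 1, 2 and 2-1, a 358-fold lower mean. The orders in which oocytes are given stay the same below, values are scaled CPM, and means are given ± SD between oocytes (n = 2 for GV and n = 3 for MII). Tmem126b, a factor that assembles respiratory complex I, was at 127 and 254 in GV oocytes and without a count in any MII oocyte, at least 1017-fold lower against a floor of 3 counts over the MII oocytes. Pfdn6, a subunit of the prefoldin chaperone, was at 399 and 170 in GV and at 0, 0.935 and 0.828 in MII oocytes. Snrpd2, an Sm protein of the spliceosome, was at 2087 and 1139 in GV and at 22.8, 3.12 and 1.03 in MII oocytes, with MII oocyte 1 the highest of the 3. Slirp, an RNA-binding protein of mitochondria, lay at 760 ± 293 in GV and 3.58 ± 0.799 in MII oocytes. The same separation held for Polr2i, a subunit of RNA polymerase II, at 1026 ± 313 against 10.8 ± 9.77, and for Psmc3ip, a cofactor of meiotic recombination, at 266 ± 53.5 against 1.44 ± 1.19.

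Ribosomal protein mRNAs were lower as a class. Of the 49 described genes of the large ribosomal subunit 33 were called lower and none higher (median log2 -3.44), and of the 33 genes of the small subunit 24 were lower and none higher (median -3.56). Rps27a, a ribosomal protein made as a fusion with ubiquitin, was at 657 and 605 in GV oocytes and 5.45, 6.08 and 7.45 in MII oocytes, 99.7-fold lower. The pooled counts of 4862 and 101 gave exact 95% Poisson intervals, in unscaled CPM, of 599 to 633 at the GV stage and 5.42 to 8.08 at the MII stage, which cover counting error only. Rpl37, whose match to the poly(A) signal is shown above, was at 809 and 501 in GV and 8.38, 5.92 and 4.55 in MII oocytes. For Rps6, the ribosomal protein phosphorylated downstream of mTOR, the values were 515 and 420 and 0, 14.8 and 14.1, with no count in MII oocyte 1. The summed level of the large subunit genes was 17071 and 10902 in GV and 3639, 1261 and 701 in MII oocytes, so MII oocyte 1 kept the most. Many ribosomal protein genes have near-identical copies elsewhere in the genome, between which the counts can be split, so the level of a single gene is uncertain. List medians were -2.86 and -2.96 in that oocyte alone against both GV oocytes, and between -3.63 and -4.10 in the other two.

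Mitochondrial ribosomal proteins, which translate the mRNAs of mitochondrial DNA, numbered 36 lower and 4 higher of 78 (median -2.11). Mrps18c was at 802 ± 211 in GV and 4.98 ± 2.02 in MII oocytes, and Mrpl22 at 373 ± 22.6 and 4.65 ± 4.14. This list had a median of -1.14 in MII oocyte 1 and of -2.91 and -3.53 in MII oocytes 2 and 2-1.

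Nuclear mRNAs for the respiratory chain were lower too. Complex I oxidises NADH, and 31 of its 37 nuclear genes were lower and 2 higher (median -3.59). Ndufb7, a subunit of its membrane arm, was at 644 and 345 in GV and 8.38, 4.52 and 2.28 in MII oocytes, 97.8-fold lower, and Ndufs7, which carries an iron-sulfur cluster, was 99.1-fold lower at 230 ± 7.03 against 2.32 ± 0.922. Of 39 genes of complexes III and IV and ATP synthase 26 were lower and 1 higher (median -2.88). Cox7c of cytochrome c oxidase was at 1407 and 1798 in GV and 29.1, 5.46 and 5.38 in MII oocytes, again with the highest MII value in oocyte 1. Atp5j2, an ATP synthase subunit, was at 1346 and 1109 in GV and 5.66, 11.5 and 6.62 in MII oocytes, 155-fold lower. Uqcrb of complex III was 51.5-fold lower. Of 26 genes of mitochondrial protein import 11 were lower and 1 higher (median -1.83), among them the inner membrane channel gene Timm17a at 999 and 1709 in GV and 107, 19.9 and 10.8 in MII oocytes.

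Of the 13 mRNAs encoded by mitochondrial DNA itself, none was called in either direction, and their median was 0.92. This median rested on MII oocyte 1, without which it was -0.03. Their summed level was 34382 and 86008 in the GV oocytes and 278863, 42642 and 53806 in the MII oocytes, so 2 of the 3 MII oocytes lay between the GV values. Per length, mt-Cytb of complex III had the highest mean TPM at both stages, 28916 in GV and 69428 in MII oocytes. The ranking covered protein-coding genes with a symbol other than a Gm or Rik name. This order did not hold in each oocyte. In GV oocyte 1 mt-Cytb was at 10263 TPM and Sub1 at 30143, and in MII oocyte 2 mt-Cytb was at 29470 and H1foo at 46389.

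Proteasome genes, which encode the protease that degrades cyclin B and securin at anaphase, split within 1 complex. Of 40 described, 14 were lower and 3 higher (median -1.21). Psmb1, a subunit of the 20S core, was at 2279 and 2077 in GV and 48.2, 19.2 and 15.9 in MII oocytes, 78.4-fold lower. Psmb7, a catalytic subunit of that core, was at 26.0 and 29.0 in GV and 0, 0.468 and 0 in MII oocytes, and Psmc2, an ATPase of the regulatory particle, at 172 ± 110 and 9.48 ± 7.62. The summed level did not separate the stages, at 10952 and 11206 in GV and 15967, 6617 and 5139 in MII oocytes. Of 39 translation initiation factors 8 were lower and 6 higher (median -0.51). Eif3g, a subunit of the factor that binds the small ribosomal subunit, was at 120 and 225 in GV and 10.7, 12.9 and 2.90 in MII oocytes. Eif4g1, the scaffold of the cap-binding complex, was listed at 0 in both GV oocytes and at 31.2, 84.6 and 13.5 in MII oocytes. Among 21 Sm and LSm proteins 5 were lower and 3 higher (median -0.67), with Lsm3 at 2789 and 3070 in GV and 213, 31.2 and 33.8 in MII oocytes.

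**Figure D2:**
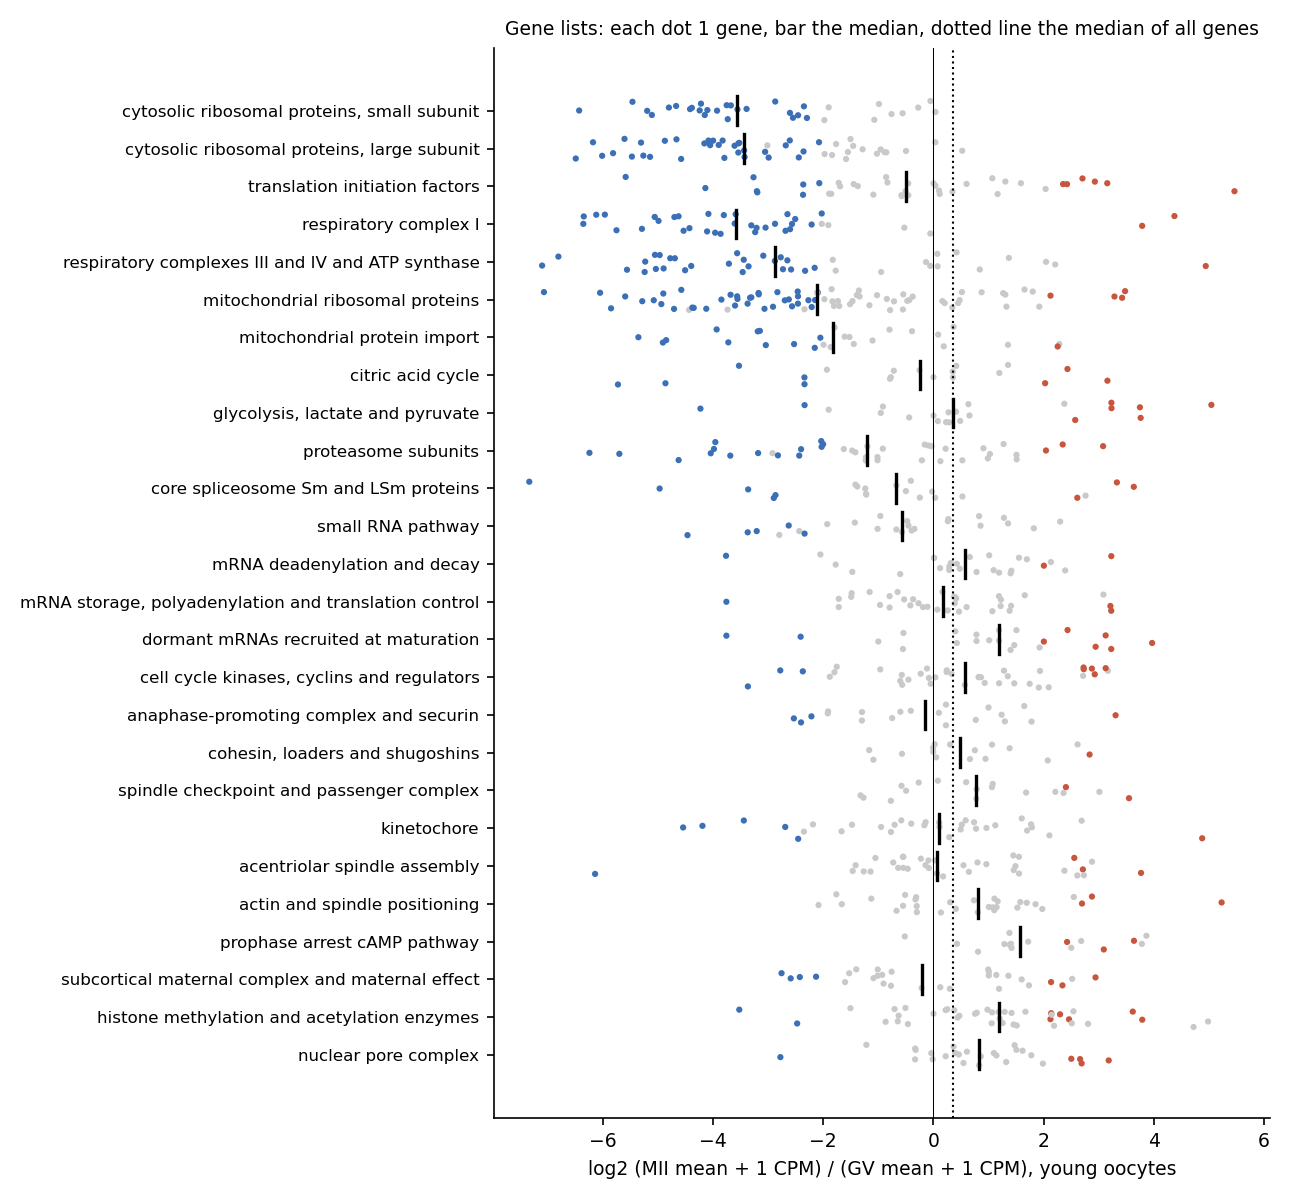
Log2 ratio of MII over GV means (after adding 1 CPM) for each gene of the lists named, in young oocytes, 1 dot per gene. Blue and red dots are genes called lower and higher, black bars are list medians, and the dotted line is the median of all genes (0.35). The ribosomal and respiratory lists lie left of -2 for most genes, and most other lists spread around the dotted line.

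Enzymes of sugar metabolism went both ways. Of 22 genes of glycolysis, lactate and pyruvate 6 were higher and 2 lower (median 0.35, the same as that of all genes). Eno1, Pgam1 and Ldha, which encode enolase, phosphoglycerate mutase and lactate dehydrogenase A, were listed at 0 in both GV oocytes. In MII oocytes Eno1 was at 25.4, 53.6 and 17.0, Pgam1 at 20.1, 9.66 and 7.87 and Ldha at 23.7, 8.42 and 5.18. These are genes with near-identical copies elsewhere in the genome, between which the deposited counts can be split, so their values are uncertain. Of all genes with a deposited count, 14.51 and 14.19% had a fractional one in GV and 26.93, 21.8 and 13.75% in MII oocytes. The part of this difference in the values above was not tested. Pfkp, a phosphofructokinase, was at 3.35 and 34.8 in GV and 0, 0 and 0.207 in MII oocytes. Of 19 genes of the citric acid cycle 5 were lower and 3 higher (median -0.25, which was 0.08 with mean TPM). The subunits of succinate dehydrogenase differed in direction, Sdhb at 163 ± 24.3 in GV and 2.09 ± 1.82 in MII oocytes and Sdhc at 7.62 ± 7.09 and 75.9 ± 29.0.

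**Figure D3:**
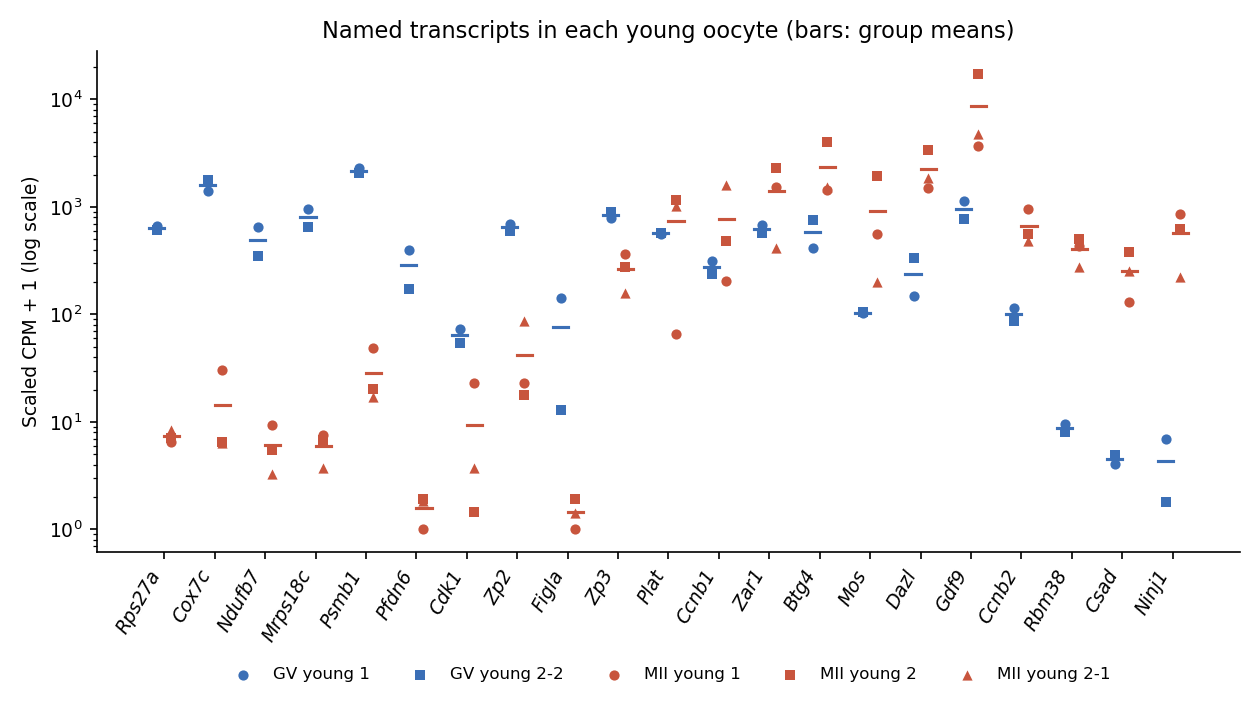
Level of named transcripts in each young oocyte, in scaled CPM plus 1 on a log axis, GV oocytes in blue and MII oocytes in red, with a marker per oocyte and bars for the group means. From Rps27a to Zp3 all MII points lie below both GV points, Plat, Ccnb1 and Zar1 overlap, and from Btg4 to Ninj1 all MII points lie above both GV points.

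Dormant mRNAs, known to be translated during maturation, lay above the median of all genes. Of 22 listed, 6 were higher and 2 lower (median 1.19, 0.81 with DESeq2 size factors). The list median was -0.41 in MII oocyte 1 alone and 1.17 and 1.41 in the others. Mos, the kinase that holds the egg at metaphase II, was at 102 and 104 in GV and 563, 1956 and 201 in MII oocytes, 8.80-fold higher in mean, with MII oocyte 2 far above the others. Dazl, an RNA-binding protein that promotes translation at maturation, was at 146 and 331 in GV and 1485, 3401 and 1841 in MII oocytes, 9.39-fold higher. Plat, tissue plasminogen activator and a classic dormant mRNA, was at 560 and 574 in GV and 64.3, 1158 and 1017 in MII oocytes, so the MII values lay on both sides. Btg4 was at 410 and 754 in GV and 1430, 4046 and 1538 in MII oocytes, 4.01-fold higher and just past the 4-fold rule. Its log2 ratio of 2.00 was 1.66 with DESeq2 size factors, so the call was lost.

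Most genes of mRNA deadenylation and decay were called in neither direction, 23 of 26 (median 0.57). This median was -1.64 in MII oocyte 1 alone and 0.59 and 1.32 in MII oocytes 2 and 2-1. Cnot7, a deadenylase of the CCR4-NOT complex, was at 301 and 463 in GV and 288, 231 and 1019 in MII oocytes, and Cnot6l, its partner deadenylase, at 82.8 and 141 and 36.7, 252 and 390. Both overlapped between stages. Cnot10, a subunit of the same complex, was lower, at 39.7 and 2.35 in GV and 0, 0 and 1.86 in MII oocytes, the GV oocytes differing widely. Pabpn1l, an oocyte poly(A)-binding protein that brings BTG4 to mRNA, was 9.45-fold higher at 127 and 76.0 in GV and 867, 1558 and 453 in MII oocytes. Of 35 genes of mRNA storage and translation control 1 was lower and 2 higher (median 0.16, which was -0.22 with DESeq2 size factors). Zar1l, an mRNA-binding protein, was lower, at 97.2 and 81.0 in GV and 0, 14.5 and 2.48 in MII oocytes. Its paralogue Zar1 was at 672 and 570 in GV and 1540, 2294 and 415 in MII oocytes, on both sides of the GV values. Cpeb1 was at 90.8 and 140 and 32.9, 81.5 and 153.

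Most cell cycle genes, 31 of 39, were called in neither direction, while the kinase gene Cdk1 was lower and the cyclin gene Ccnb2 higher. Of the 39, 3 were lower and 5 higher, beside 9.9 and 8.49% of all genes (median 0.57, which was -0.34 in MII oocyte 1 alone). Cdk1 itself was at 73.0 and 53.0 in GV and 21.8, 0.468 and 2.69 in MII oocytes, 7.58-fold lower. Ccnb2, cyclin B2, was at 114 and 86.7 in GV and 964, 561 and 485 in MII oocytes, 6.68-fold higher with no overlap. Ccnb1, cyclin B1, was at 315 and 237 and 206, 480 and 1608, and MII oocyte 1 lay below both GV oocytes. Arpp19, which blocks the phosphatase PP2A once phosphorylated, was at 992 and 980 in GV and 44.0, 43.5 and 196 in MII oocytes, 10.4-fold lower, and Ppp2r1a, the scaffold subunit of PP2A, was 9.29-fold higher at 3.91 ± 3.34 against 36.3 ± 30.1. Map2k1, the MAP kinase kinase below MOS, was at 27.9 and 14.4 in GV and 75.8, 87.1 and 320 in MII oocytes. Wee2, the oocyte kinase that inhibits CDK1, and Fbxo43, which inhibits the anaphase-promoting complex at metaphase II, overlapped between stages, Wee2 at 92.8 and 368 in GV and 144, 193 and 331 in MII oocytes.

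Genes of the cAMP pathway of prophase arrest had a median of 1.57, with 3 of 16 higher and none lower. The median was 0 in MII oocyte 1 alone and 1.73 and 1.82 in MII oocytes 2 and 2-1. The 3 higher genes all encode inhibitory G protein alpha subunits. Gnai3 was at 8.25 and 3.66 in GV and 22.8, 58.3 and 176 in MII oocytes, Gnai1 at 11.6 and 3.66 and 71.9, 54.2 and 91.5, and Gnai2 at 43.8 and 15.9 and 247, 174 and 73.3. Gpr3, the receptor that keeps cAMP high, was at 3.09 and 0.784 and 0, 15.6 and 4.97, near the floor, and Pde3a, the phosphodiesterase that lowers cAMP, at 39.5 and 30.1 and 7.96, 76.7 and 196. Neither separated the stages.

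Anaphase control had 3 genes lower and 1 higher of 20, beside 9.9 and 8.49% of all genes (median -0.16, which was 0.34 with mean TPM). Ube2s, the enzyme that extends ubiquitin chains with the anaphase-promoting complex, was at 65.5 and 38.1 in GV and 757, 554 and 252 in MII oocytes, 10.1-fold higher. The genes of the complex's activators, Cdc20, at 100 and 97.5 and 15.1, 290 and 43.1, and Fzr1, at 12.9 and 9.93 and 0, 5.30 and 6.83, were not called. Of 16 genes of cohesin and its regulators 1 was called, the loader subunit gene Mau2 at 1.68 ± 2.37 in GV and 18.1 ± 12.5 in MII oocytes. Rec8, the meiotic cohesin subunit, was listed at 0 in all 5 oocytes and not among the genes described.

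The kinetochore list had members far apart, with 5 lower and 1 higher of 33 (median 0.10, which was -0.31 with DESeq2 size factors). Spc24 of the NDC80 complex was at 413 and 361 in GV and 31.0, 20.7 and 8.90 in MII oocytes. Subunits of the MIS12 complex lay on opposite sides, Nsl1 at 19.9 and 53.8 in GV and 0.419, 0 and 1.45 in MII oocytes and Dsn1 at 7.74 and 6.79 and 99.1, 77.0 and 549. Of 35 spindle assembly genes 1 was lower and 3 higher (median 0.06, which was -0.28 with DESeq2 size factors). Haus1 of the augmin complex was 80.9-fold lower at 167 and 924 in GV and 10.9, 8.10 and 1.24 in MII oocytes, and Tpx2, which activates Aurora A, was at 212 and 259 and 119, 217 and 145. Cep192, a scaffold of microtubule-organising centres, had 1 count in the GV oocytes together and a mean of 14.4 ± 11.6 in MII oocytes. Of 31 genes of actin and spindle positioning 3 were higher and none lower (median 0.81), all of actin or the Arp2/3 complex that branches it. Arpc1b was at 58.8 and 4.96 in GV and 1112, 1746 and 839 in MII oocytes, 38.6-fold higher, Arpc4 at 3.09 and 4.18 and 42.3, 24.9 and 31.9, and Actb, beta-actin, at 14.9 and 12.3 and 50.9, 96.2 and 134. Actb also has near-identical copies in the genome.

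Of the zona pellucida genes, which encode the egg coat made during growth, Zp2 was called lower and Zp1 and Zp3 were not. Zp2 was at 698 and 590 in GV and 21.8, 16.7 and 85.1 in MII oocytes, 15.6-fold lower. Zp3 was at 783 and 892 and 364, 274 and 156, 3.16-fold lower with no overlap but short of the 4-fold rule, and Zp1 at 91.5 and 34.5 and 49.0, 30.7 and 40.6, with overlap. Figla, the transcription factor that drives the zona genes, was at 140 and 12.0 in GV and 0, 0.935 and 0.414 in MII oocytes. The GV oocytes differed widely in Figla, but both lay above all MII oocytes. Pou5f1, the pluripotency factor OCT4, was higher, at 25.5 and 22.7 in GV and 132, 206 and 56.5 in MII oocytes. Gdf9, secreted by the oocyte to its cumulus cells, was 9.01-fold higher at 1141 and 772 in GV and 3684, 17417 and 4750 in MII oocytes. The related factor Bmp15 was at 335 and 497 and 142, 333 and 1642, with overlap.

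Maternal effect genes, needed by the embryo before its own transcription, were mostly called in neither direction. Of 29, 4 were lower and 3 higher, beside 9.9 and 8.49% of all genes (median -0.22, which was 0.56 with mean TPM). Lower were subunits of the subcortical maternal complex, Ooep at 2253 and 1705 in GV and 807, 465 and 81.2 in MII oocytes and Tle6 at 516 and 366 and 93.2, 87.7 and 62.7. Zbed3 of the same complex was 4.40-fold higher, at 428 and 455 and 2045, 2500 and 1285, a call lost with DESeq2 size factors (log2 1.77). Tcl1, a coactivator of the kinase AKT, was 7.69-fold higher at 412 ± 56.9 against 3174 ± 1836, and Nlrp5 was at 447 and 570 and 203, 167 and 386, 2.02-fold lower in mean and not called. Of 28 genes of fertilization and egg activation 2 were lower and 1 higher (median 0.53).

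Small RNA genes had 5 lower and none higher of 25 (median -0.57). Tarbp2, a partner of Dicer, was at 80.7 and 43.9 in GV and 0, 4.36 and 1.24 in MII oocytes, and Mael and Tdrd5 of the piRNA pathway were lower, at 43.9 ± 26.9 against 3.34 ± 2.79 and at 107 ± 7.81 against 10.7 ± 14.5. Outside that count, Gtsf1, a piRNA factor, was at 8911 and 8242 in GV and 209, 80.0 and 52.0 in MII oocytes, 75.5-fold lower. In GV oocytes Gtsf1 was among the 10 highest in mean TPM of protein-coding genes without a Gm or Rik name. Histone methylation and acetylation enzymes numbered 6 higher and 2 lower of 41 (median 1.18), and 31 had a ratio above 0. Their median was -0.18 in MII oocyte 1 alone and 1.26 and 1.31 in MII oocytes 2 and 2-1. Kmt2d, an H3K4 methyltransferase, was at 0.516 and 1.04 in GV and 2.31, 25.2 and 43.3 in MII oocytes, with MII oocyte 1 far below the others. Hdac6, a cytoplasmic deacetylase, was lower at 18.8 and 14.9 and 0, 0 and 1.66. Of 27 nuclear pore genes 4 were higher and 1 lower (median 0.83), with Nup37 at 25.5 and 54.3 in GV and 596, 295 and 219 in MII oocytes. The nuclear pore median was -0.72 in MII oocyte 1 alone and 0.71 and 1.40 in MII oocytes 2 and 2-1. Slbp, which binds histone mRNA stem-loops, was 5.42-fold higher, and its MII values of 249, 2002 and 1554 had their lowest next to the GV values of 228 and 240.

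Spindle checkpoint and chromosomal passenger genes numbered 2 higher and none lower of 18 (median 0.78, which was -0.23 without MII oocyte 2). The higher ones were Mad2l1bp, which takes the checkpoint protein MAD2 apart from its target, at 2.74 ± 2.41 in GV and 42.7 ± 51.4 in MII oocytes, and the kinetochore gene Zw10 at 3.22 ± 4.56 and 21.3 ± 15.0. Of 23 oocyte transcription factors 1 was lower and 2 higher (median 0.68), and of 22 growth factors and receptors 2 were higher and none lower (median 1.05, which was -0.30 without MII oocyte 2-1). In MII oocytes 1, 2 and 2-1 alone the medians were -0.48, 0.03 and 1.17 for the transcription factors. For the growth factors and receptors they were -1.48, -0.15 and 1.85. Of 16 genes of DNA methylation and imprints 1 was higher (median 0.74), Tet1, which oxidises methylcytosine, at 2.32 ± 3.28 in GV and 23.2 ± 10.9 in MII oocytes. Catalytic and helicase proteins of the spliceosome had 5 lower and none higher of 29 (median -0.0034, which was -0.34 with DESeq2 size factors and 0.19 with mean TPM), and of 18 aminoacyl-tRNA synthetases 1 was higher (median 0.04, which was -0.29 with DESeq2 size factors).

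Most genes of stress and protein quality lists were called in neither direction. The unfolded protein response had 2 higher and 1 lower of 22 (median 1.22), with Dnajc3, a co-chaperone of the endoplasmic reticulum, at 226 ± 211 in GV and 1620 ± 928 in MII oocytes. Its list median was -0.10 in MII oocyte 1 alone and 1.29 and 0.97 in MII oocytes 2 and 2-1. Cytosolic and mitochondrial chaperones had 4 lower and 2 higher of 27 (median -0.39, which was 0.54 with mean TPM). Hspa8, the constitutive HSP70 of the cytosol, was lower, at 412 and 423 in GV and 3.77, 20.4 and 97.3 in MII oocytes, and the small heat shock gene Hspb1 was higher, at 1.03 and 0 and 89.2, 10.1 and 4.35, with most of its mean from MII oocyte 1. Antioxidant enzymes had 1 gene called in each direction of 25 (median -0.01, which was 0.31 with mean TPM), Glrx3, a glutaredoxin, at 48.5 ± 5.79 in GV and 3.74 ± 4.86 in MII oocytes, and the secreted glutathione peroxidase gene Gpx3 at 3.61 and 0 and 25.8, 189 and 25.5. DNA damage response and repair genes also had 1 in each direction of 37 (median 0.02, which was -0.31 with DESeq2 size factors). Linker histone and histone chaperone genes had 3 higher and 1 lower of 23 (median 0.18, which was -0.18 with DESeq2 size factors), with the histone chaperone gene Asf1b at 56.0 and 21.7 in GV and 336, 1033 and 328 in MII oocytes. Of 13 genes of NAD synthesis and sirtuins 1 was lower and 1 higher (median 0.93). Nadsyn1, NAD synthetase, was at 6.96 and 29.5 in GV and 0, 2.34 and 2.07 in MII oocytes, and Sirt4, a mitochondrial sirtuin, was listed at 0 in both GV oocytes and at 4.19, 58.1 and 6.00 in MII oocytes.

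Some calls of genes named above fell short of 4-fold when 1 oocyte was left out. Without MII oocyte 2 the log2 ratio of Mos was 1.88, of Btg4 1.35, of Mad2l1bp 1.91, of Zbed3 1.91, of Pou5f1 1.92 and of Slbp 1.94. Without MII oocyte 1 that of Zw10 was 1.77, and without MII oocyte 2-1 that of Map2k1 was 1.90 and of Ooep -1.64. Without GV oocyte 1 it was -1.05 for Cnot10, 1.63 for Btg4 and -1.92 for Ooep, and without GV oocyte 2-2 it was 1.89 for Gnai2, 1.58 for Zw10 and -1.69 for Nadsyn1. With the deposited TPM in place of scaled CPM the ratio was -1.86 for Cdk1, 1.89 for Cep192, 1.46 for Kmt2d, -1.77 for Hdac6, -1.83 for Nadsyn1 and -1.80 for Ooep. The direction was the same in each of these cases.

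Beyond the lists, the largest positive ratios were of genes with few counts in GV oocytes. Ninj1, a membrane protein of cell adhesion and membrane rupture, was at 5.93 and 0.784 in GV and 865, 624 and 222 in MII oocytes, 170-fold higher. Csad, an enzyme of taurine synthesis, was at 3.09 and 3.92 and 128, 378 and 250, 72.0-fold higher. Rbm38, an RNA-binding protein, was at 8.51 and 7.05 and 431, 498 and 275, 51.6-fold higher. Fam69b had 2 counts in the GV oocytes together and was at 112, 119 and 47.6 in MII oocytes, and Fyn, a kinase of the SRC family, was at 3.35 and 0 and 160, 90.1 and 98.8. Edn1, endothelin 1, had no count in GV oocytes and was at 63.5, 55.5 and 31.5 in MII oocytes, which makes its mean at least 129 times the level that 3 counts over both GV oocytes would give. Gja1, connexin 43 of cumulus gap junctions, also had no count in GV oocytes and was at 125, 0.623 and 182 in MII oocytes. It is a cumulus marker, and the other 19 cumulus and granulosa markers summed to 27.6 and 61.1 scaled CPM in GV and 44.4, 42.4 and 155 in MII oocytes, highest in MII oocyte 2-1 and within the GV range in the others. The part of other cells in these values was not tested.

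The most abundant mRNAs per length changed their order, again among protein-coding genes without a Gm or Rik name. Besides mitochondrial genes, the highest mean TPM in GV oocytes was that of Sub1, a transcription coactivator, at 27807, followed by Omt2b at 15457 and the polyubiquitin gene Ubb at 15101. In MII oocytes it was that of H1foo, the oocyte linker histone, at 23845, followed by Hsp90aa1, a cytosolic chaperone, at 13280 and Dppa3, a guard of maternal DNA methylation, at 9310. This order of means differed between oocytes. TPM of H1foo was 16702, 46389 and 8443 in MII oocytes 1, 2 and 2-1, of Hsp90aa1 3263, 18096 and 18482 and of Dppa3 12702, 9156 and 6073, so H1foo led these 3 in oocytes 1 and 2 and Hsp90aa1 in oocyte 2-1. In GV oocyte 2-2 Ubb lay above Omt2b. Ubb was at 25881 and 25072 scaled CPM in GV and 6495, 2262 and 1048 in MII oocytes and Sub1 at 28439 and 21872 and 7687, 2130 and 979, 7.79-fold and 6.99-fold lower. H1foo was at 4946 and 3796 and 21820, 31988 and 3978, and was not called because MII oocyte 2-1 lay between the GV values. Gapdh was at 11.9 and 4.18 in GV and 10.1, 12.8 and 12.0 in MII oocytes.

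Genes lower in MII oocytes had shorter transcripts. Their median length was 1117 bases, against 1948 for the higher genes and 1977 for all. By quintile of length, from the shortest to the longest, the median log2 ratio was -0.77, 0.32, 0.53, 0.66 and 0.73, and the share of genes called lower was 23.7, 10.1, 6.70, 5.59 and 3.37%. Without the ribosomal, respiratory, proteasome, import and Sm lists the shortest quintile was still at -0.58 and the longest at 0.74. MII oocyte 1 did not follow this order, with -0.53 in the shortest, 0 in the second and the third, and -0.72 in the longest quintile. Oocytes 2 and 2-1 ran from -1.09 to 0.56 and from -1.56 to 1.00. Without oocyte 1 the difference between longest and shortest quintile was 2.14, against 1.51 with it, 1.01 within batch 1 and 2.08 within batch 2.

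Genes with a CPE motif near the 3' end had a higher median ratio. The CPE was searched as TTTTAT or TTTTAAT on the mRNA strand in the last 100 bases of annotated 3' UTRs of at least 100 bases, which 10036 protein-coding genes had. It was present in 20.4% of them, in 26.4% of those called higher and in 12.6% of those called lower. By this search of 1 transcript per gene, Mos, Dazl, Ccnb1 and Ccnb2 were without it, and Plat, Gdf9 and Btg4 had it. The median log2 ratio was 0.90 over 2043 genes with and 0.35 over 7993 genes without it. The difference of 0.55 was 0.55 within batch 1 and 0.66 within batch 2, and a difference of that direction was present in each quintile of transcript length, 3' UTR length and AT content of the window. In the window's most AT-rich quintile it was 1.02 against 0.77. By oocyte, medians with and without a CPE were -0.07 and -0.21 in MII oocyte 1, 0.69 and 0.08 in oocyte 2 and 1.03 and 0.27 in oocyte 2-1. In oocyte 1 the most AT-rich quintile showed none of it, at -0.10 with and -0.10 without the motif. AATAAA or ATTAAA in the last 50 bases, held by 7996 genes, went with a median of 0.55, against 0.14 for 2040 genes without. A motif match describes the annotated sequence and not a used site. Whether the library step favours mRNAs with longer tails was not tested.

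**Figure D4:**
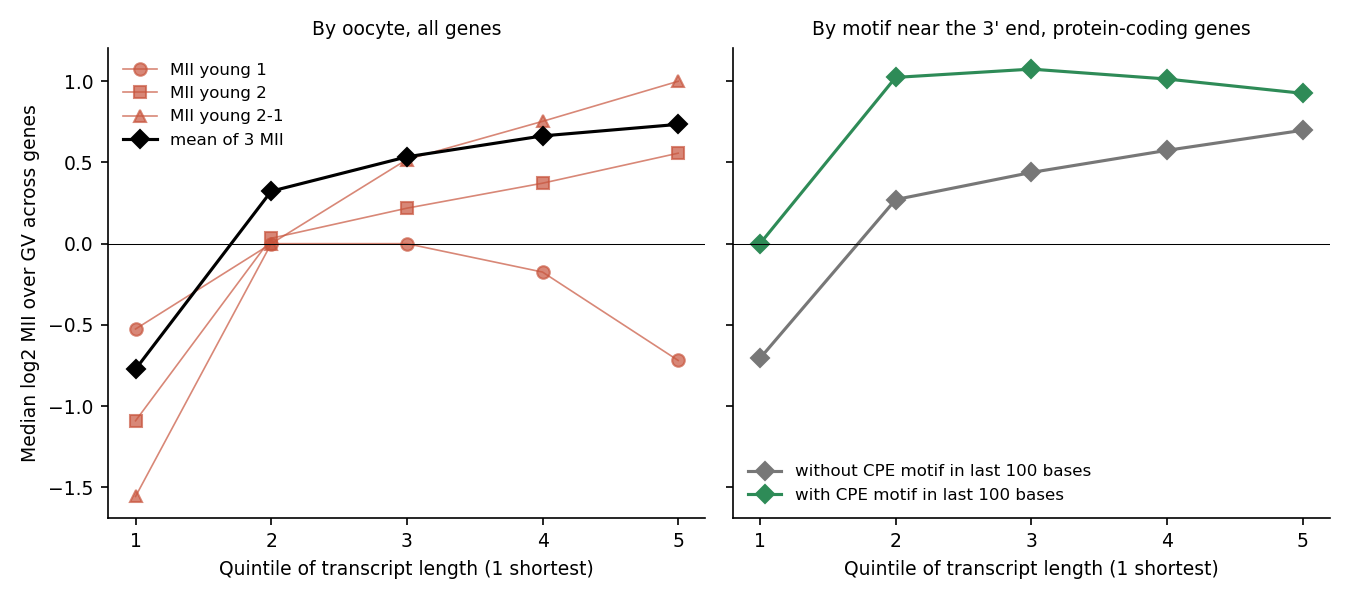
Median log2 ratio of MII over GV across genes, by quintile of transcript length, for each MII young oocyte and their mean (left), and for protein-coding genes with and without a CPE in the last 100 bases of the 3' UTR (right). The mean runs from -0.77 to 0.73, MII oocyte 1 falls to -0.72 in the longest quintile, and the line with CPE lies above that without in every quintile.

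The same contrast in oocytes of untreated mice of 12 months, 3 MII and 2 GV with no library shared, gave a separate view of the genes called in young oocytes. A further aged GV library, with 5009 counts, was left out. There 1548 genes (12.7%) were lower and 169 (1.39%) higher, and the median of all genes was -0.29. Lower in both were 791 genes, 65.7% of the young and 51.1% of the aged list. Higher in both were 43 genes, 4.17% of the young and 25.4% of the aged list. With the aged median of all genes below 0, a negative aged ratio was the commoner direction over all genes. By direction alone, 1167 of the 1204 genes lower in young oocytes had a negative ratio in aged oocytes, with a median of -2.94, and 788 of the 1032 higher genes a positive ratio, with a median of 0.65. Fcf1 had log2 ratios of -8.40 in young and -6.37 in aged oocytes, Pfdn6 -7.49 and -6.97, Csad 5.81 and 1.80, Gja1 6.69 and 1.91, and Ninj1 7.04 and -0.08. With a CPE the aged median was 0.26, and without it -0.38. Only 1 gene lower in young oocytes was called higher in aged ones, and 12 the reverse. Whether the ages differed was not tested.

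**Figure D5:**
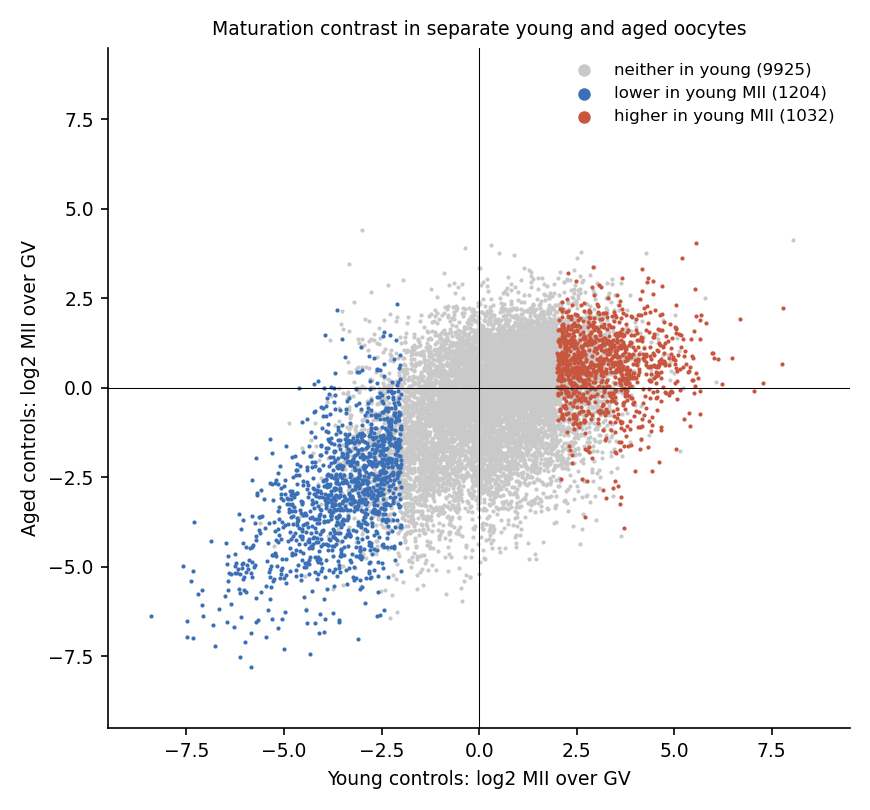
Log2 ratio of MII over GV for each gene in young (x axis) and aged control oocytes (y axis), with genes lower in young MII oocytes in blue, higher in red and others in grey. Most blue points lie below 0 on both axes, with an aged median of -2.94, and red points centre at 0.65 on the aged axis.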

How the data were processed

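Single-oocyte RNA sequencing tables of 18 libraries were deposited. Per the submitters' processing notes, reads were handled with TopHat2 2.1.1, Cufflinks, FastQC 0.11.8 and Trim Galore 0.4.5 on the builds mm10 and GRCm38, while the file headers have the columns of an RSEM gene table, and which tool made the counts is not given in the sources used here. Per the file headers each table holds an expected count per gene, which the authors did not normalise, and TPM, normalised by the authors for transcript length and depth, which serves here as an alternative and to compare genes. Transcript length is the deposited length of a gene, a mean over its transcripts per the file headers.

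Expected counts were rounded to whole numbers. GV aged control 2-2 (5009 counts) and the copy of GV young 1 were left out, which left 16 oocytes. The filter was filterByExpr (edgeR 4.0.16, R 4.3.3) by group at a minimum count of 10, which 12161 genes passed. They were scaled to CPM with TMM factors over these oocytes. Ratios of stages are log2 values of (MII mean + 1 CPM) over (GV mean + 1 CPM). A gene was called with a log2 ratio of at least 2 in size, no overlap between oocytes and at least 10 CPM in the higher mean. Printed folds are plain ratios of the scaled means. A group without counts was set to a floor of 3 counts over the group. Poisson intervals (95%, exact) are of pooled, unscaled CPM. Symbols, coordinates and 3' UTRs came from GENCODE vM21 (GRCm38), which matched 46488 of 47069 identifiers, with 1 transcript per gene. The script was tested on simulated data, which says nothing of how often the rule calls unchanged genes in these oocytes.

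The comparison, the 39 functional and 6 marker lists and the rules were chosen with earlier results of these data known. Named genes were protein-coding genes with a symbol other than a Gm or Rik name: up to 25 called per direction with the largest ratio, up to 5 called per list, the 10 with the highest mean TPM in each stage, and 28 listed by name. The text gives a part of them, chosen after their values were seen. The windows of 100 and 50 bases, the splits by length, UTR length and AT content, the medians by oocyte and the printed sites were also chosen after seeing the data. Alternatives changed the scaling (DESeq2 1.42.0 size factors among them), filter, added constant, fold, unit, libraries and batches. Tables and figures used Python 3.11.15, pandas 2.3.3, numpy 2.4.6, scipy 1.17.1 and matplotlib 3.10.9.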

Additional observations from a re-analysis of the deposited data

Results flagged for a closer look

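Among the genes considered for naming with at least 10 CPM in the higher mean of each age, 3 had ratios of opposite sign in young and aged control oocytes with no overlap between stages in either age, and that difference was not tested. Tubg1, gamma-tubulin of the microtubule nucleation complex, had a log2 ratio of MII over GV of 2.71 in young and -1.71 in aged controls. Cars, cysteinyl-tRNA synthetase, had 2.70 in young and -0.89 in aged controls. Its values were 1.29 and 4.96 in the young GV oocytes and 56.6, 14.5 and 6.42 in the young MII oocytes, so MII oocyte 2-1 lay next to GV oocyte 2-2, and the young ratio was 1.47 without MII oocyte 1. Without GV oocyte 2-2 the young ratio of Tubg1 was 1.84. Snrpb, an Sm protein of the spliceosome with near-identical copies elsewhere, had 3.64 in young and -3.05 in aged controls. Its values were 0 and 0 scaled CPM in the young GV oocytes and 25.4, 8.10 and 0.828 in the young MII oocytes, so MII oocyte 2-1 lay near the floor.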

How the results depend on the processing

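No paired analysis was possible because the labels name no animals, so nothing links a GV oocyte to an MII oocyte. Replicate numbers shared between titles are not shown to mark pairs. Values within batches are given instead. The count of genes higher in MII oocytes (1032) was 672 with 5 CPM added, 2017 within batch 2, 1698 for MII oocyte 2-1 against both GV oocytes and 548 with an 8-fold rule, under which 748 genes were lower (1204). Leaving out each oocyte in turn gave 1078 to 1505 higher and 1238 to 1597 lower genes. The no-overlap condition is looser with fewer oocytes, so counts with fewer oocytes tend to rise and do not measure stability. Without MII oocyte 1, 80.2% of the 1032 higher and 95.1% of the 1204 lower genes remained called. Within batch 2 the shares were 70.0 and 86.4%. The median of all genes (0.35) was 0.11 with DESeq2 size factors, 0.67 with mean TPM and 0.11 to 0.64 without each oocyte in turn. With DESeq2 size factors 71.3% of the higher and 100% of the lower genes remained called, and with mean TPM 76.7 and 70.2%. The differences by length and by CPE kept their direction under every alternative run, at 0.84 to 2.56 and 0.32 to 0.75. MII oocyte 1 alone was not among these alternatives. Its medians were -0.53 in the shortest and -0.72 in the longest quintile, the other direction. With and without a CPE they were -0.07 and -0.21, closer together than under any alternative run. Of the list and feature medians under the alternatives, 778 were within the spread set for them and 103 moved beyond it. That spread was the SD of the medians of the 3 MII oocytes taken singly, so it was wide where these oocytes differed. A median could change sign within it, as for the kinetochore list, at 0.10 and, with DESeq2 size factors, -0.31. Lying within it does not show that a median was stable. The median of oocyte growth factors and receptors was -0.30 without MII oocyte 2-1, and up to 1.55 without another oocyte, against 1.05, and the cause was not tested. Several list medians near 0 also changed sign with the scaling or with an oocyte left out. The GV libraries had 3941002 and 3954399 counts, so genes under about 1 CPM could not be compared.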
